A study of Homo sapiens with 6 samples.

Results

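The genes described here are the protein-coding genes of chromosome 19 whose symbol is ZNF followed by a number, with or without a final letter. They were found from the chromosome, gene type and symbol columns of the count table, and no measured value was used. This gave 212 of the 30327 genes in the table, which is 16.9% of its 1255 protein-coding genes of chromosome 19 and 46.3% of its 458 protein-coding ZNF genes. Enough reads for a test were present for 166 of them. The remaining 46 had at most 56 reads over all libraries, with a median of 10, and they are not part of any count below unless stated.

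Most of these genes encode C2H2 zinc finger proteins, in which a row of fingers, each folded around a zinc ion, reads DNA, and short conserved linkers join neighbouring fingers. Many also carry a KRAB domain, which recruits the corepressor TRIM28 and with it the histone methyltransferase SETDB1, so that H3K9 methylation is laid down over bound sites, many of them in transposable elements. The family grew by tandem duplication, and on chromosome 19 its members lie side by side in clusters.

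The RNA came from a breast cancer line with amplified ERBB2 (HER2), SK-BR-3, in 6 libraries. Of these, 3 carried the label si_NC, a nontargeting siRNA control, and 3 the label si_GRB2, an siRNA against GRB2, an adaptor protein that links receptor tyrosine kinases to RAS. The labels conflict, because the titles of the treated libraries, their genotype field and the series design name GRB2 overexpression (the design, from a plasmid), whereas their descriptions and the siRNA methods name si_GRB2. The methods give a single GRB2 duplex, so other actions of that duplex and a lower GRB2 level cannot be told apart, and no source says that the libraries came from separate cultures, so the p-values measure only the spread between these libraries.

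GRB2 was therefore examined first. Its level, in CPM (read counts scaled to library size after TMM normalisation), was 123.9, 129.5 and 125.7 in the si_NC libraries and 27.8, 28.1 and 29.6 in the libraries labelled si_GRB2. The groups did not overlap, and GRB2 fell by 2.15 on the log2 scale (SE 0.040, edgeR quasi-likelihood adjusted p = 3.87e-15). The exact two-sided permutation test over the libraries gave p = 0.1, the smallest p that 3 against 3 allows. Counted reads came to between 24810378 and 28532480 in each library. The luminal HER2 markers ERBB2, KRT8, KRT18 and KRT19 had group means between 2705 CPM (KRT18, si_GRB2) and 5969 CPM (KRT8, si_NC), with ERBB2 called higher (log2 fold change 0.24) and all 3 keratins called lower (-0.20 to -0.55). EPCAM (-0.55) and GRB7 (-0.23), which lies beside ERBB2 in the amplicon, were called lower too. Of 5 further markers, mostly of other cell types, PTPRC, PECAM1 and VIM had too few reads to be tested. COL1A1 differed by 0.02 and ESR1 by 0.39 (log2), with edgeR adjusted p of 0.932 and 0.252. The part of other cell types in the values below was not tested. In bulk RNA a change in fewer cells and a change in RNA per cell cannot be told apart.

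The repeated finger is the feature that most of these genes share. One finger with the linker on either side, as encoded in the genome, is shown for 7 of the genes that rose most, because the number of linkers is set against the fold changes further on. No such finger is shown for ZNF222, ZNF419 and ZNF134, which were also among the largest rises and have 3, 2 and 0 linkers. The genes shown all hold linkers, so they do not bear on whether linkers went with a rise. Each run is the coding strand from 5′ to 3′ of GRCh38, starts and ends within a single coding exon, and has the 5 codons of both linkers in capitals. The runs lie at chr19:57420633-57420731 (+ strand), chr19:57253915-57254013 (+), chr19:52115604-52115702 (-), chr19:9342409-9342507 (+), chr19:34741831-34741929 (+), chr19:52156696-52156794 (-) and chr19:2834274-2834372 (+), in that order.
ZNF17: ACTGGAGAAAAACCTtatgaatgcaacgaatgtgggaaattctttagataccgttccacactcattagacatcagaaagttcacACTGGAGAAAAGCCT
ZNF805: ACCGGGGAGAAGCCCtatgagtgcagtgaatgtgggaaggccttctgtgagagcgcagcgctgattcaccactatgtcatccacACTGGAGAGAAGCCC
ZNF616: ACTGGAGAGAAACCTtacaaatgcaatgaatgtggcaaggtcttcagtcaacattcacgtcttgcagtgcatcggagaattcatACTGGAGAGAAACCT
ZNF559: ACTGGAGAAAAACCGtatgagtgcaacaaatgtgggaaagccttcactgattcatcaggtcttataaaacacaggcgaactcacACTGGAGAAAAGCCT
ZNF181: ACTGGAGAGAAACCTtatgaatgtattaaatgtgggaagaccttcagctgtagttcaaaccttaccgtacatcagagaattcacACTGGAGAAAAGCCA
ZNF836: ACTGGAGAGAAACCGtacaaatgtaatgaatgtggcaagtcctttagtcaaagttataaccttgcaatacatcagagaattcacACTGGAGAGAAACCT
ZNF554: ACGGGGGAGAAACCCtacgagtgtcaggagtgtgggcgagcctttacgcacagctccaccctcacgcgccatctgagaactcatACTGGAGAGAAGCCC

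All runs have the next linker 28 codons after the first, and such a run was found in 151 of the 212 genes. The linkers are spelled with synonymous codons that differ from gene to gene.

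Among the chromosome 19 zinc finger genes that were called, nearly all were higher in the libraries labelled si_GRB2. Of the 166 tested, 44 were up-regulated and 2 were down-regulated at an edgeR adjusted p under 0.05, and 120 were not called. The up-regulated share was 26.5%, beside 15.2% of all 15801 genes tested, and the down-regulated share was 1.20%, beside 15.5% of all genes. The median log2 fold change was 0.21 (quartiles 0.04 and 0.35), a median fold of 1.16, whereas the median over all genes was 0.0019. The log2 fold change was above 0 for 134 of the genes and below 0 for 32, and it ran from -0.50 to 1.04. DESeq2 called fewer, 26 up and 1 down of the 153 given an adjusted p (17% up, beside 13.5% of all genes). Limma on log2(FPKM + 0.1) called 6 up and 1 down of 205 (2.93% up, beside 3.10% of all genes), and all 46 genes called by edgeR kept their direction in both.

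**Figure D1:**
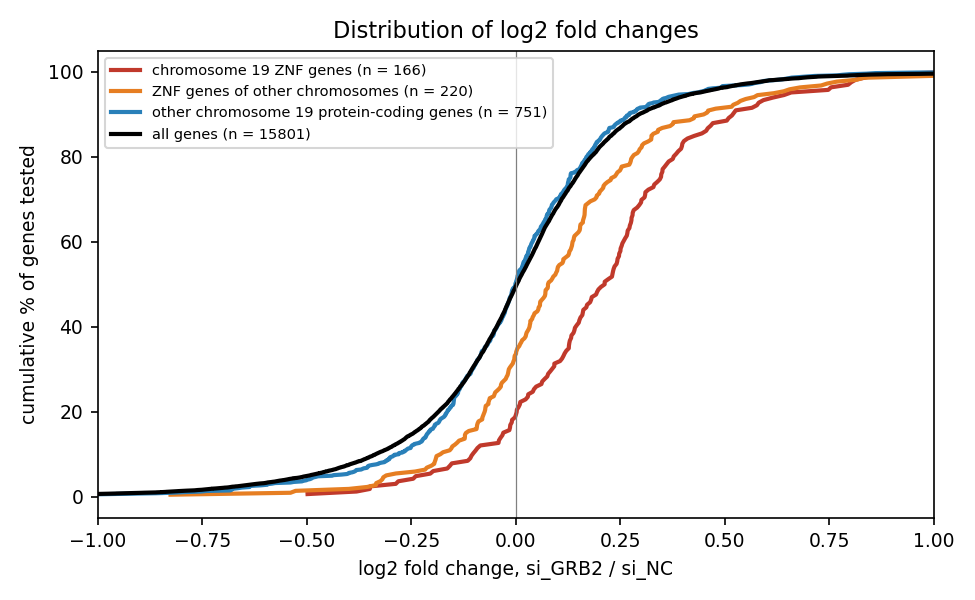
Cumulative share of genes tested (y axis, percent) against the log2 fold change of si_GRB2 over si_NC (x axis) for 166 chromosome 19 zinc finger genes, 220 ZNF genes of other chromosomes, 751 other protein-coding genes of chromosome 19 and all 15801 genes. The red line of the chromosome 19 zinc finger genes lies to the right of the black line of all genes over the middle of the range, with medians of 0.21 and 0.0019.

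The groups of libraries separated for many of these genes. In 64 genes (38.6%) every si_GRB2 library lay above every si_NC library, beside 21.1% of all genes tested, and in 4 genes (2.41%) every one lay below, beside 21.2%. This held for 41 of the 44 up-regulated genes and for both down-regulated genes. The filter on low counts was passed in all 6 libraries by 160 of the genes, and 4 passed it through the si_GRB2 libraries only, among them ZNF222, the single called gene of those 4.

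The libraries of each group resembled each other in this measure of the whole set. For each library, the log2 CPM of a gene minus that gene's mean over the 6 libraries was taken, and the median over the 166 genes was -0.081, -0.091 and -0.099 in si_NC and 0.097, 0.088 and 0.133 in si_GRB2. Since the mean is taken over both groups, the value of a library also depends on the other libraries. The same median over all genes tested lay between 0.0003 and 0.0048 in every library. Summed over the 166 genes, the level was 1219, 1224 and 1217 CPM in si_NC and 1343, 1365 and 1374 CPM in si_GRB2, or 1220 ± 3.40 and 1361 ± 15.5 (SD, n = 3). The 2 groups of libraries did not overlap in either measure, and no library stood between them. With si_GRB2 replicate 2, si_GRB2 replicate 3 or si_NC replicate 2 left out, the number called fell from 46 to 29, 29 and 30, while the median log2 fold change stayed between 0.19 and 0.21 whichever library was left out.

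**Figure D2:**
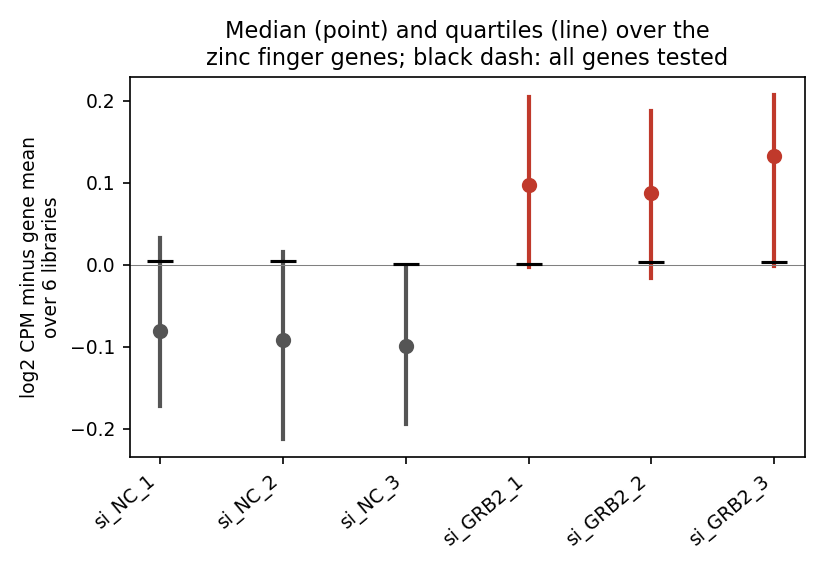
For each of the 6 libraries, the point is the median and the line the quartiles, over the 166 chromosome 19 zinc finger genes, of log2 CPM minus the gene's mean over the libraries (y axis), and the black dash is the median over all genes tested. The si_NC medians lie between -0.099 and -0.081, the si_GRB2 medians between 0.088 and 0.133.

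By the limits on fold change and p that the study used, a fold above 1.5 or at most its inverse, here with an edgeR adjusted p under 0.01, 7 of the genes were up-regulated DEGs and 0 were down-regulated DEGs, beside 0.829% and 1.69% of all genes tested. These were ZNF17, ZNF134, ZNF181, ZNF419, ZNF559, ZNF616 and ZNF805. At an unadjusted p under 0.05, 62 of the 166 genes (37.3%) passed in either direction, a share near the 39.4% of all genes tested. DESeq2 also gave 0 down-regulated DEGs, with 6 up-regulated, and limma on FPKM gave 0 in both directions. Without si_NC replicate 1 or without si_GRB2 replicate 2, 4 of the genes were DEGs, and without si_NC replicate 3 there were 10.

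ZNF616 (ENSG00000204611.7, chr19:52113091-52139938, - strand, GRCh38 with GENCODE 44) measured 3.24, 2.28 and 2.67 CPM in si_NC and 5.01, 4.41 and 4.94 CPM in si_GRB2. Every si_GRB2 library was above every si_NC library, and the log2 fold change was 0.80 (SE 0.15, edgeR adjusted p = 0.00073). A same-strand transcript, CTC-471J1.8, overlaps ZNF616 and held 35.1% as many reads. ZNF836 (ENSG00000196267.13, chr19:52153864-52171643, - strand), in the same cluster and overlapped by the same transcript, measured 0.713, 1.06 and 0.784 CPM in si_NC and 1.63, 1.71 and 1.30 CPM in si_GRB2. The groups did not overlap, and the log2 fold change was 0.87 (SE 0.24, edgeR adjusted p = 0.0112). CTC-471J1.8 held 110% as many reads as ZNF836. The ZNF836 call was lost with DESeq2 (adjusted p = 0.054) and without si_GRB2 replicate 2 (edgeR adjusted p = 0.055), where its log2 fold change was 0.79.

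In the last cluster of the long arm lay 4 of the 7 DEGs. ZNF419 (ENSG00000105136.21, chr19:57487711-57496098, + strand) measured 2.42, 2.39 and 2.99 CPM in si_NC and 4.37, 4.41 and 4.42 CPM in si_GRB2. The si_GRB2 libraries had an SD of 0.0271 CPM (n = 3) and all lay above the si_NC libraries, and the log2 fold change was 0.75 (SE 0.14, edgeR adjusted p = 0.000797). ZNF134 (ENSG00000213762.12, chr19:57614233-57624724, + strand) measured 4.03, 5.26 and 5.31 CPM in si_NC and 7.55, 7.57 and 7.90 CPM in si_GRB2, again with no overlap. Its log2 fold change was 0.66 (SE 0.12, edgeR adjusted p = 0.00054). ZNF805 (ENSG00000204524.7, chr19:57240632-57262728, + strand) measured 4.67, 5.26 and 5.56 CPM in si_NC and 7.23, 8.41 and 8.06 CPM in si_GRB2. The lowest si_GRB2 library was above the highest si_NC library, with a log2 fold change of 0.61 (SE 0.11, edgeR adjusted p = 0.000512). ZNF17 (ENSG00000186272.13, chr19:57411161-57421934, + strand) measured 2.75, 2.35 and 3.14 CPM in si_NC and 3.89, 5.13 and 4.82 CPM in si_GRB2. Its groups were apart too, and the log2 fold change was 0.75 (SE 0.16, edgeR adjusted p = 0.00165).

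The other two DEGs lay elsewhere. ZNF181 (ENSG00000197841.15, chr19:34734155-34745378, + strand) measured 1.6, 1.73 and 1.96 CPM in si_NC and 3.02, 3.17 and 3.12 CPM in si_GRB2. The libraries within each group were close together and the groups were apart, with a log2 fold change of 0.81 (SE 0.17, edgeR adjusted p = 0.00129). An opposite-strand transcript, CTD-2553L13.10, held 13% as many reads, and the sources used here do not say whether counting used strand. ZNF559 (ENSG00000188321.14, chr19:9323772-9351162, + strand) measured 1.35, 1.33 and 1.75 CPM in si_NC and 1.95, 2.95 and 2.80 CPM in si_GRB2. One si_GRB2 library lay just above the highest si_NC library, and the log2 fold change was 0.79 (SE 0.21, edgeR adjusted p = 0.00743). ZNF181, ZNF419 and ZNF616 were DEGs whichever of the 6 libraries was left out.

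The largest fold change belonged to a gene with few reads, which passed the filter on low counts only through the si_GRB2 libraries, where it was high, so that its rank and its call carry that selection. ZNF222 (ENSG00000159885.14, chr19:44025342-44033110, + strand) had 8, 9 and 14 reads in si_NC and 25, 17 and 19 reads in si_GRB2. The groups did not overlap, and the log2 fold change was 1.04 (SE 0.34, edgeR adjusted p = 0.0283). The call was lost in 4 of the 6 fits with a library left out, with edgeR adjusted p of 0.133 and 0.065 without si_GRB2 replicate 1 or 3 and 0.106 and 0.0905 without si_NC replicate 1 or 2. ZNF554 (ENSG00000172006.12, chr19:2819868-2836735, + strand), the first of the genes along the chromosome, measured 2.53, 1.80 and 3.10 CPM in si_NC and 4.29, 3.86 and 3.52 CPM in si_GRB2. The groups were apart, and the log2 fold change was 0.64 (SE 0.18, edgeR adjusted p = 0.0125). Its adjusted p was 0.0579 without si_GRB2 replicate 1 and 0.0736 without si_NC replicate 2.

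**Figure D3:**
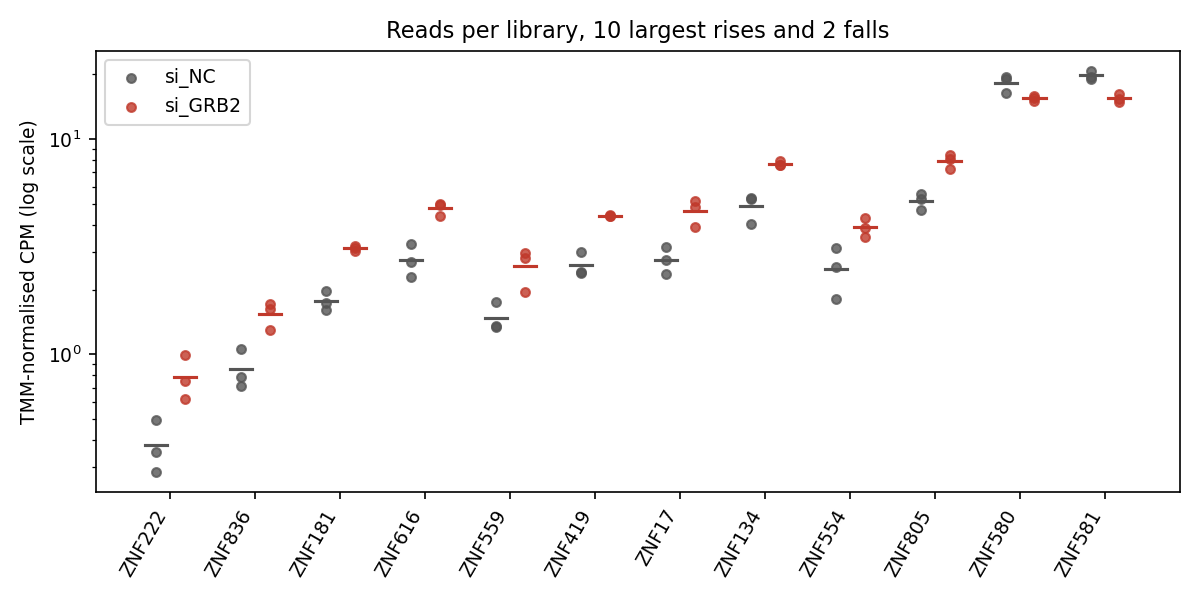
TMM-normalised CPM (y axis, log scale) of the 10 chromosome 19 zinc finger genes with the largest rises among those called and of both genes called lower, one point per library (grey si_NC, red si_GRB2) with the group mean as a bar. In all 12 genes the groups do not overlap, and only ZNF580 and ZNF581 have the si_GRB2 libraries below the si_NC libraries.

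Both down-regulated genes were neighbours. ZNF581 (ENSG00000171425.10, chr19:55635459-55645623, + strand) measured 19.4, 20.7 and 18.9 CPM in si_NC and 16.2, 14.8 and 15.3 CPM in si_GRB2. The groups were apart, and the log2 fold change was -0.35 (SE 0.063, edgeR adjusted p = 0.000488). ZNF580 (ENSG00000213015.9, chr19:55635016-55643470, + strand) measured 18.9, 16.3 and 19.4 CPM in si_NC and 15.9, 15.4 and 15 CPM in si_GRB2, so that its lowest si_NC library was just above its highest si_GRB2 library. Its log2 fold change was -0.24 (SE 0.071, edgeR adjusted p = 0.0167). That call was lost with DESeq2 (adjusted p = 0.0571) and without si_GRB2 replicate 2, si_GRB2 replicate 3 or si_NC replicate 3 (edgeR adjusted p = 0.0515, 0.064 and 0.0621). The annotated spans of both genes overlap each other and CCDC106 on the same strand, which held 259% and 270% as many reads as ZNF581 and ZNF580 and had a log2 fold change of -0.02 that was not called. Neither of them has a linker of the kind shown above, and neither do ZNF134 (log2 fold change 0.66) and ZNF776 (0.40), which were called higher.

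The number of linkers in the coding sequence went with the fold change. It was counted as in-frame runs of codons for the conserved linker in the GENCODE 44 canonical transcript, so fingers joined by an altered linker are missed and the count is not a finger count. Genes with 3 or more linkers (117 tested) had a median log2 fold change of 0.26, with 40 called higher and 0 called lower. At an unadjusted p under 0.05, 51 of these 117 (43.6%) passed in either direction, beside 39.4% of all genes tested. Genes with 0 to 2 linkers (49 tested) had a median of 0.075, with 4 called higher and 2 called lower. By the DEG limits, 5 of the 117 and 2 of the 49 were up-regulated, beside 0.829% of all genes tested. Among the 27 genes with 10 or more linkers, 0 were DEGs. In finer classes, the median was 0.066 with no linker (32 genes), 0.087 with 1 to 2 (17), 0.24 with 3 to 5 (43), 0.27 with 6 to 9 (47) and 0.29 with 10 or more (27). The share called higher was 6.25%, 11.8%, 20.9%, 40.4% and 44.4% in the same order, beside 15.2% of all genes. With limma on log2(FPKM + 0.1) the medians were 0.21 with 3 or more linkers and 0.089 with fewer.

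**Figure D4:**
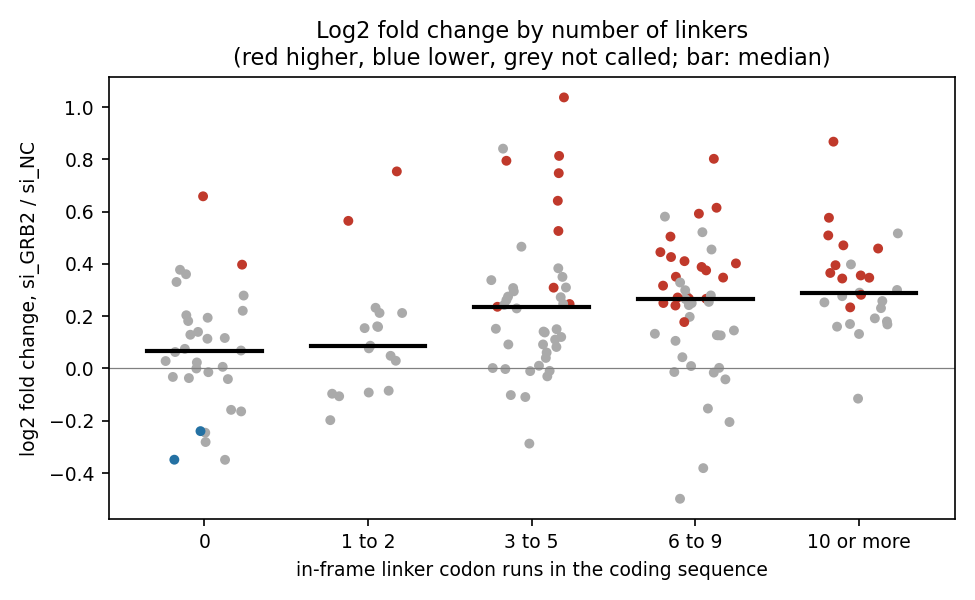
Log2 fold change of si_GRB2 over si_NC (y axis) of the 166 genes tested by the number of linkers in their coding sequence (x axis, 5 classes), with red points called higher, blue lower and grey not called, and a black bar at the class median. The bars are at 0.066, 0.087, 0.24, 0.27 and 0.29 from left to right. Both blue points and 2 of the red points are in the class with no linker.

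Across the 166 genes, the log2 fold change had a Spearman rho of 0.37 with the number of linkers (Pearson r 0.29), of -0.34 with the GC content of the transcript (r -0.40) and of 0.19 with transcript length. These are descriptions across genes that share the same libraries, and genes are not independent replicates. The rho with the mean level in CPM was -0.10 and with position along the chromosome -0.02. GC content and linkers went together: median GC was 41.4% in genes with 3 or more linkers and 49.0% in the rest. At a GC content of 42 to 44%, 32 of the zinc finger genes had a median log2 fold change of 0.28, whereas 1010 other protein-coding genes had 0.015. Above 60% GC, 20 of the zinc finger genes had a median of -0.035, beside -0.012 in 2058 other protein-coding genes. In every class of mean level up to 32 CPM the zinc finger median was between 0.097 and 0.29, whereas the other protein-coding genes had medians between -0.037 and 0.0084. The parts of GC content, length and level in the shift were not tested.

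The genes fell into 16 clusters when a gap of over 1 Mb between starts began a new one, and 9 clusters held 5 or more genes, 201 in all. The median log2 fold change was positive in 8 of these 9. In the cluster at chr19:51571283-53580269, 31 of 33 genes tested had a log2 fold change above 0, with a median of 0.25, and 15 were up-regulated and none down-regulated. These were ZNF613, ZNF614, ZNF432, ZNF841, ZNF616, ZNF836, ZNF480, ZNF808, ZNF83, ZNF600, ZNF468, ZNF320, ZNF845, ZNF525 and ZNF761, with log2 fold changes from 0.18 (ZNF480) to 0.87 (ZNF836). In the cluster at chr19:55476617-58481230, the largest with 57 genes, 48 were tested, the median was 0.17, 8 were up-regulated (ZNF71, ZNF805, ZNF17, ZNF419, ZNF134, ZNF211, ZNF776 and ZNF544) and both down-regulated genes lay here. The up-regulated share was 16.7% in this cluster and 45.5% in the cluster before it, beside 15.2% of all genes tested.

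The other clusters of 5 or more genes had positive medians with 1 exception. At chr19:36182276-37817300 all 13 genes tested had a log2 fold change above 0, with a median of 0.25, and ZNF260, ZNF461 and ZNF875 were called higher. At chr19:19668796-20200488 all 8 did, with the largest cluster median, 0.31, and ZNF253, ZNF93, ZNF682 and ZNF486 were called higher. At chr19:43525497-45076478 the median was 0.27 over 18 genes, with ZNF222, ZNF226, ZNF227 and ZNF180 called higher. The clusters at chr19:7069703-9793180 (12 genes tested) and chr19:11483427-12640098 (17 genes tested) both had a median of 0.20. In the first, ZNF558, ZNF559, ZNF121 and ZNF561 were called higher, and in the second ZNF627, ZNF823, ZNF564 and ZNF791. At chr19:2819868-2944971 the median of 5 genes was 0.16, with ZNF554 called higher. The exception was chr19:34677639-34964229, where 3 of 4 genes tested lay below 0 and the median was -0.011, although this cluster holds ZNF181. In the order given, the up-regulated shares of these clusters were 23.1%, 50%, 22.2%, 33.3%, 23.5%, 20% and 25%, beside 15.2% of all genes tested. Between the cluster that ends at 20200488 and the gene that starts at 32345594, the table used here held a single gene of the set, ZNF429, with 1 read in all, and the other zinc finger genes that GENCODE 44 lists there were not analysed here.

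**Figure D5:**
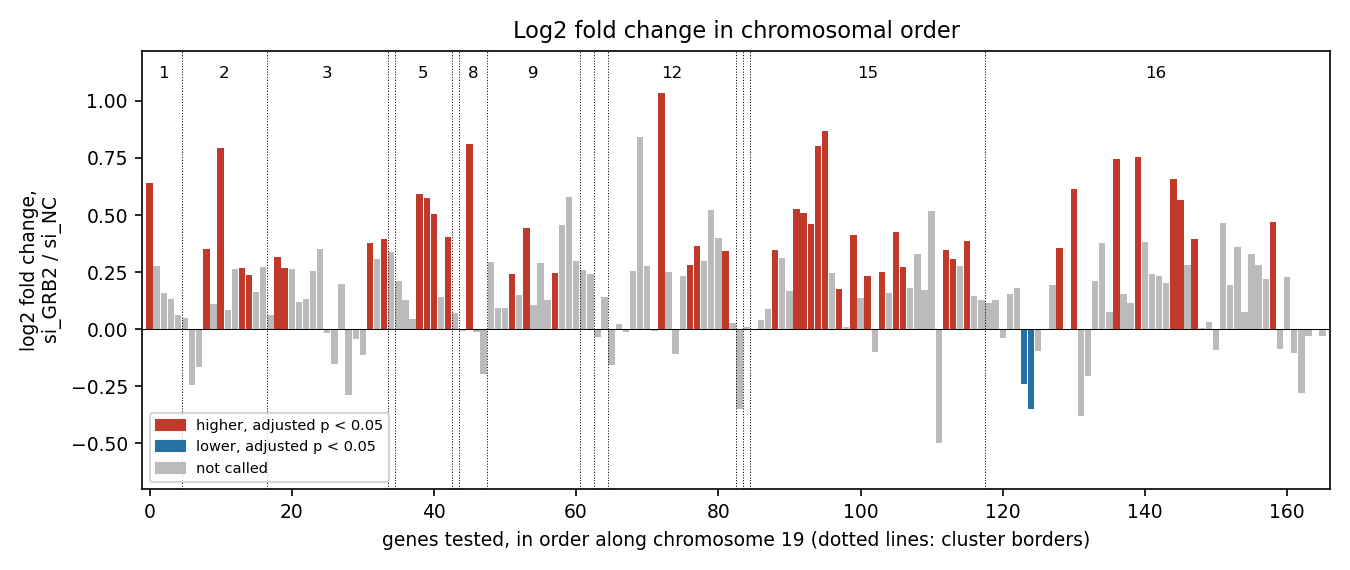
Log2 fold change of si_GRB2 over si_NC (y axis) of the 166 genes tested in their order along chromosome 19 (x axis), with dotted lines at cluster borders and cluster numbers above clusters with 4 or more genes tested. Red bars (44) are called higher and are present in each numbered cluster, and both blue bars (lower) stand side by side in cluster 16.

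Genes of other families inside the same clusters had a median near 0. The 76 other protein-coding genes tested that lie within the spans of the clusters had a median log2 fold change of -0.019. Of them, 8 were higher (10.5%) and 19 lower (25%), beside 15.2% and 15.5% of all genes tested. The 751 other protein-coding genes of chromosome 19 had a median of -0.0012, with 128 higher and 138 lower. Protein-coding ZNF genes of other chromosomes lay between, with a median of 0.078 over 220 tested, 48 higher (21.8%) and 16 lower (7.27%). Among those, the 108 with 3 or more linkers had a median of 0.15, with 30 higher (27.8%) and 3 lower (2.78%). The 112 with fewer linkers had a median of 0.041, with 18 higher (16.1%) and 13 lower (11.6%). All these groups were measured in the same 6 libraries, and the differences between them were not tested.

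Reads of near-identical copies or of overlapping annotations bear on single genes of the family. In 24 of the 166 genes over 10% of the transcript's 100-base words occur in another annotated gene. Reads from there can be lost or shared. The other gene can be a copy elsewhere or an annotation of the same locus, such as the readthrough ZNF625-ZNF20 for ZNF20 (72.8%). Of the 24, 6 were called, all higher. They were ZNF564 (84.2%), ZNF17 (16.5%), ZNF222 (14.7%), ZNF805 (12.7%), ZNF836 (11.5%) and ZNF544 (10.1%). Among the 142 genes without such sharing, 38 were called higher, beside 15.2% of all genes tested, and the median log2 fold change was again 0.21. An opposite-strand gene with over 10% as many reads was present for 23 of the 166 genes. Of these, 3 were called in either direction, beside 4838 of all 15801 genes tested. Same-strand overlaps were not totalled. A same-strand gene held 396%, 162%, 122% and 120% as many reads as ZNF544, ZNF841, ZNF808 and ZNF761, which were called higher. Such a gene held 862%, 262% and 172% as many as ZNF8, ZNF547 and ZNF586, which were not called. The part of such overlaps in the calls was not tested.

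The promoters of these genes were compared by sequence, from the RefSeq promoter table (GRCh38.p14), which held 188 of the 212. In the 250 bases before the start, the ETS core CGGAAG, searched on both strands, was present in 38.8% of them, in 41.0% of the 39 promoters of up-regulated genes, in 37.8% of the 111 promoters of genes tested but not called, in 37.7% of the 204 promoters of ZNF genes of other chromosomes, in 28% of 10077 promoters of protein-coding genes tested and in 16.8% of all 27305 promoters. CCAAT was present in 44.7%, in 43.6% of the up-regulated, in 47.7% of those not called, in 41.2% of ZNF genes of other chromosomes, in 35.2% of the protein-coding genes tested and in 32.9% of all. AAGATGGC, a YY1 core, was present in 4.26% of the 188, 7.69% of the up-regulated (3 promoters) and 1.80% of those not called. It was present in 0.98% of ZNF genes of other chromosomes, 1.69% of the protein-coding genes tested and 1.34% of all. In the same order, GCATGCGC, an NRF1 core, was present in 3.72%, 0%, 2.70%, 5.88%, 4.62% and 2.77%. TATAAA was present in 1.6%, 5.13% (2 promoters), 0%, 4.41%, 5.73% and 11.3%. The motifs do not contain each other, and a match is a description of letters only.

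Of the 4 DEGs of the largest cluster, 3 had a longer stretch in common in their promoters. The promoter of ZNF17 ends in the same letters except for the last bases of the stretch, so ZNF17 did not hold it in full. Promoters of ZNF134 (chr19:57613992-57614241), ZNF419 (chr19:57487500-57487749) and ZNF805 (chr19:57240382-57240631), all on the + strand and shown 5′ to 3′, share a run of 15 bases, in capitals, that includes the ETS core in reverse and begins 25, 25 and 45 bases before the start.
ZNF134: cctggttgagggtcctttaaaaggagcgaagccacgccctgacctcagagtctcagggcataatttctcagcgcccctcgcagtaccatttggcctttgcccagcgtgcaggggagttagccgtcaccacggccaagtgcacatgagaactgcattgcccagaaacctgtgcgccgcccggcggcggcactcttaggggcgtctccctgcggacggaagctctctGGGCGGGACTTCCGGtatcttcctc
ZNF419: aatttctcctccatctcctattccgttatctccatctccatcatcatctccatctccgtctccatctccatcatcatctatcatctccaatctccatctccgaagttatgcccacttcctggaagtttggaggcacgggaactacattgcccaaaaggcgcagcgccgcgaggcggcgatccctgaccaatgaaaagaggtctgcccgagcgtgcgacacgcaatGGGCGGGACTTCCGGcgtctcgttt
ZNF805: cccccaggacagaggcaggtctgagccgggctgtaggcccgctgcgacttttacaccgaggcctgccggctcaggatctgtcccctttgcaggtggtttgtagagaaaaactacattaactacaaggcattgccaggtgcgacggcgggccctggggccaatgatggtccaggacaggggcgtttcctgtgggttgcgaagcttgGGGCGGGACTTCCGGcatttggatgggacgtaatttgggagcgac

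This comparison was made after the fold changes were seen. The run was defined from the promoters shown, so its presence in them was fixed in advance. The run was present on either strand in 7 of the 188 promoters, and all 7 belong to the cluster at chr19:55476617-58481230. It was present in 3 of 39 promoters of up-regulated genes (7.69%), the 3 that defined it, and in 3 of 111 of genes tested but not called (2.70%). It was present in 17 of 10077 promoters of protein-coding genes tested (0.169%) and in 23 of all 27305 (0.0842%), which include the promoters shown. Besides the promoters shown, the 7 were those of ZNF264, ZNF547, ZNF773 and ZNF671. ZNF547 and ZNF773 had log2 fold changes of 0.38 and 0.38 and ZNF264 of 0.0024, none of them called, and ZNF671 had too few reads to be tested.

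Levels differed widely within the set. Per length, the highest mean levels of the set were those of ZNF146, ZNF428, ZNF552, ZNF296 and ZNF581, whereas the median gene stood at 0.753 FPKM, a level per length of transcript and depth of library. ZNF146, a protein made almost only of fingers, measured 17.7 ± 0.284 FPKM in si_NC and 19.4 ± 1.15 FPKM in si_GRB2 (SD, n = 3). Its CPM groups did not overlap, but its log2 fold change of 0.09 (SE 0.036, edgeR adjusted p = 0.0688) was not called. ZNF428, ZNF552 and ZNF296 had log2 fold changes of -0.01, 0.03 and 0.03, with overlapping groups and edgeR adjusted p of 0.892, 0.669 and 0.775. An opposite-strand gene, ZNF586, held 27.4% as many reads as ZNF552.

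Several of the genes have a known role. ZNF93, which silences LINE-1 retrotransposons, measured 1.75, 1.29 and 1.11 CPM in si_NC and 2.30, 2.04 and 1.86 CPM in si_GRB2. The groups did not overlap and the log2 fold change was 0.58 (SE 0.21, edgeR adjusted p = 0.0478). The call was lost with DESeq2 (adjusted p = 0.147) and in each fit with a library left out except the fit without si_NC replicate 1, with edgeR adjusted p from 0.0643 to 0.171. ZNF350 (ZBRK1), a repressor that binds BRCA1, measured 6.38, 4.71 and 5.06 CPM in si_NC and 6.83, 6.52 and 6.72 CPM in si_GRB2, apart but not called (log2 fold change 0.31, edgeR adjusted p = 0.0714). ZNF274, which binds the 3′ ends of zinc finger genes and brings SETDB1 there, measured 6.45, 7.93 and 6.88 CPM in si_NC and 7.67, 9.36 and 7.66 CPM in si_GRB2. Its groups overlapped, with a log2 fold change of 0.22 (edgeR adjusted p = 0.16). ZNF224, a transcriptional repressor, and ZNF331, an imprinted gene, had log2 fold changes of 0.25 and 0.13 with overlapping groups (edgeR adjusted p = 0.244 and 0.328). ZNF382, ZNF154 and ZNF671, which are often methylated in tumours, had 5, 17 and 56 reads over all 6 libraries and were not tested. ZNF91 was not analysed here.

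The genes for the proteins that KRAB zinc finger proteins work with did not move in one direction. Of 24 such genes, all tested, 4 were higher, 8 were lower and 12 were not called, with a median log2 fold change of -0.037. The share higher was 16.7%, near the 15.2% of all genes tested, and the share lower was 33.3%, beside 15.5%. ZNF274 is counted in this list and among the zinc finger genes. TRIM28, the corepressor bound by the KRAB domain, measured 299.8 ± 2.48 CPM in si_NC and 274.3 ± 13.9 CPM in si_GRB2 (SD, n = 3). Its groups did not overlap, and it was called lower (log2 fold change -0.13, SE 0.033). SETDB1 had a log2 fold change of 0.05 and was not called, nor were its partners ATF7IP (-0.07) and ATF7IP2. Of the HP1 genes, which encode readers of H3K9 methylation, CBX1 (-0.19) and CBX3 (-0.13) were lower and CBX5 (0.11) was higher.

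Among other enzymes of the list, UHRF1 and DNMT1, which maintain DNA methylation, were lower, with log2 fold changes of -0.35 and -0.19. UHRF1 measured 38.7 ± 0.475 CPM in si_NC and 30.4 ± 1.56 CPM in si_GRB2 (SD, n = 3), with no overlap. SUV39H2, an H3K9 methyltransferase, was higher by 0.41, whereas SUV39H1 was lower (-0.18). SUV39H2 measured 14.7 ± 0.213 CPM in si_NC and 19.6 ± 0.326 CPM in si_GRB2 (SD, n = 3), also with no overlap. TASOR (-0.14), of the HUSH silencing complex, and CHD3 (-0.13), a chromatin remodeller, were lower. MORC2 (0.25), which works with HUSH, and HDAC1 (0.16), a histone deacetylase, were higher. Limma on FPKM called 2 of the 24 higher and 0 lower, with either pseudocount, whereas DESeq2 called 3 higher and 6 lower.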

How the data were processed

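The authors trimmed reads with FASTX-Toolkit, used HISAT2 for alignment against GRCh38 and retained reads that mapped uniquely. They deposited the count of reads per gene and, rounded, the FPKM per gene. The counting tool, annotation release, use of strand and FPKM total are not given in the sources used here. Library factors (TMM), the filter on low counts (filterByExpr, 15801 genes left) and the quasi-likelihood test were those of edgeR 4.0.16 in R 4.3.3. The test compared 3 si_GRB2 with 3 si_NC libraries, with Benjamini-Hochberg adjustment over all genes kept. The step was tested on simulated data. Alternatives were DESeq2 1.42.0, its size factors, other filters and factors, a replicate block, limma 3.58.1 on log2(FPKM + 0.1) and log2(FPKM + 1), other limits, and each library left out. FPKM log2 fold changes understate those of low genes.

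Positions, transcripts and linkers come from GENCODE 44, which held all 212 gene identifiers. Linker codons replaced protein features, for which no protein table was used, and were chosen after the files were seen. Named genes are the DEGs, the 10 largest rises and falls at an adjusted p under 0.05, the 5 highest mean FPKM, genes with a textbook role, the cofactor list and GRB2. ZNF264, ZNF429, ZNF547, ZNF773 and the remaining called genes were named after their values were seen. The genes and lists were chosen with earlier results of these data known.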

Additional observations from a re-analysis of the deposited data

How the results depend on the processing

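All 46 called genes kept their direction under every alternative that measured them. The number called was 27 with DESeq2 (26 higher, 1 lower), 7 and 6 with limma on log2 FPKM with pseudocounts of 0.1 and 1 (6 and 5 higher, 1 and 1 lower), and 23 at an adjusted p under 0.01. It was 46 with DESeq2's size factors, 42 with at least 10 reads in every library, 44 with no filter and 41 with upper-quartile factors. DEGs numbered 6 with DESeq2, 0 and 0 with limma, and 11 at an adjusted p under 0.05. The median log2 fold change was 0.17 and 0.069 with limma, where that over all genes was 0.028 and 0.0048. The called cofactors numbered 2 and 2 with limma (2 and 2 higher, 0 and 0 lower). Leaving out each library in turn gave 29 to 37 called (28 to 36 higher, 1 to 2 lower), 4 to 10 DEGs, medians of 0.19 to 0.21 and 9 to 11 cofactors. With 2 libraries in a group, the spread is pooled over genes and groups. Values near 0 that changed sign were those of ZNF428 (0.029 and 0.027 with limma, -0.051 to 0.022 with libraries left out), ZNF296 (-0.011 to 0.057 with libraries left out), CHD4 (0.024 and 0.019 with limma, -0.038 to 0.00053), PPHLN1 (-0.0084 to 0.056) and ATF7IP2 (-0.0068 with at least 10 reads, -0.0030 with no filter, -0.0063 with upper-quartile factors, -0.078 to 0.041 with libraries left out). The cause was not tested. Depth limits single genes: ZNF222, with 92 reads in all, had a standard error of 0.34, beside a median of 0.13 over the 166 genes.

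With the replicate number as a block, 49 genes were called (47 higher, 2 lower), 44 of them also called without it, 9 were DEGs, and ATF7IP2 had a log2 fold change of -7.4157e-05. Same-numbered libraries had correlations of their deviations from -0.095 to 0.23, and libraries of different numbers from -0.28 to 0.23. With 3 libraries in a group, these values cannot decide whether the shared numbers mark pairs.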

Other observations

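Chromosome 19 also held 32 ZNF genes of the table outside the protein-coding rule, pseudogenes, noncoding and readthrough transcripts, of which 12 were tested. Of these, 3 were higher and 0 were lower at an edgeR adjusted p under 0.05, beside 15.2% and 15.5% of all genes tested. Their median log2 fold change was 0.38. The 3 were pseudogenes, named here after their values were seen. ZNF542P measured 3.96, 3.65 and 4.14 CPM in si_NC and 5.88, 6.01 and 6.16 CPM in si_GRB2, with a log2 fold change of 0.62 (edgeR adjusted p = 0.000946). The groups did not overlap. ZNF702P and ZNF818P had log2 fold changes of 0.87 and 0.56 (edgeR adjusted p = 0.0306 and 0.0476), with 146 and 234 reads in all.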
